A study of Sus scrofa with 9 samples.

Results

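Myostatin (MSTN, ENSSSCG00000016047) and follistatin (FST, ENSSSCG00000016892) were followed through RNA of embryonic pig longissimus dorsi, a back muscle that yields the loin, in 3 breeds. They are the 2 genes of a table of 19643 entries whose identifier pairs with these symbols, each has 1 entry, and both averaged at least 1 FPKM over the 9 libraries, as did 13106 entries in all. The libraries came from 3 Tibetan, 3 Wujin and 3 Large White samples. The labels class Tibetan and Wujin as indigenous Chinese breeds and Large White as introduced. All samples are embryonic, the day of gestation is not stated, and nothing says whether samples of a breed came from separate animals, litters or pools, so the tests measure only the spread between these samples.

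Myostatin is a secreted ligand of the TGF-beta superfamily that restrains muscle growth. It is made as a precursor that proteases cut, it binds activin type II receptors on muscle cells, and it signals through SMAD2 and SMAD3. Follistatin is a secreted glycoprotein that wraps around activins, myostatin and the related ligand GDF11 and keeps them from their receptors. In cattle, dogs and mice, loss of myostatin gives heavily muscled animals, and excess follistatin gives a like outcome in mice. The ratio of the antagonist to the ligand was therefore examined per library beside the level of each gene.

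Values are FPKM, a level per length of transcript and per library size, so levels of different genes can be set side by side. The number of fragments behind a value is unknown, but steps between values below 0.2 FPKM place the depth of each library at 1 to 1.23 times that of Large White 1. The Tibetan libraries stood apart: the Pearson correlation of log2(FPKM + 1) across tested entries was 0.958 to 0.965 among them, 0.749 to 0.785 between Tibetan and Wujin libraries and 0.697 to 0.742 between Tibetan and Large White libraries. Wujin 1 was the lowest of its breed for 62.4% of tested entries, against 16.5% for Wujin a and 20.3% for Wujin b, which are the 2 columns that share a header and have no number of their own. Of the 10 listed skeletal muscle markers 6 were matched by symbol. In Tibetan against Large White muscle, limma called desmin (DES), nebulin (NEB) and the myosin light chain MYL1 higher, the embryonic myosin heavy chain MYH3 lower, and neither the myosin-binding protein MYBPC1 nor the actin ACTA1. Of all tested entries, 13.0% were called higher and 63.2% lower there. After median-ratio scaling or quantile normalization of the libraries, 4 of the 6 were higher and 1 lower. MYH3 averaged 62.6 ± 8.70 FPKM in Tibetan and 1754 ± 207 FPKM in Large White libraries (SD, n = 3 each). The sum of the matched markers without ACTA1 was 10227 to 10637 FPKM in Tibetan, 6276 to 7067 FPKM in Wujin and 5406 to 6413 FPKM in Large White libraries. ACTA1 was left out of that sum because it is listed at 0 in Tibetan 2 and at 37424 and 41829 FPKM in Tibetan 1 and 3. With that 0 included, its fitted Tibetan minus Large White change had an SE of 3.38.

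MSTN stood lowest in Tibetan muscle and highest in Large White muscle. Its level was 0.468, 2.26 and 4.31 FPKM in Tibetan 1, 2 and 3. It was 8.45, 19.1 and 20.9 FPKM in Wujin 1, a and b, and 27.4, 29.7 and 33.5 FPKM in Large White 1, 2 and 3. No library of one breed overlapped with another breed, an order that 19.5% of all tested entries also showed. The Tibetan libraries spanned the widest range in proportion, with Tibetan 1 far below Tibetan 3, and Wujin 1 lay well below the other Wujin libraries. The breed means were 2.34 ± 1.92 FPKM in Tibetan, 16.1 ± 6.72 FPKM in Wujin and 30.2 ± 3.12 FPKM in Large White muscle (SD, n = 3 each).

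FST was low in Tibetan muscle and near-level across the other breeds. It stood at 2.12, 4.69 and 3.38 FPKM in Tibetan 1, 2 and 3. It stood at 22.3, 17.9 and 19.0 FPKM in Wujin 1, a and b, and at 20.5, 19.8 and 22.2 FPKM in Large White 1, 2 and 3. The Tibetan libraries lay below all others without overlap. Of all tested entries, 66.5% had all Tibetan below all Large White libraries and 53.5% had all Tibetan below all Wujin libraries. The Wujin values enclosed those of Large White. Wujin 1, the lowest of its breed for MSTN, was the highest of its breed for FST. The breed means were 3.39 ± 1.28 FPKM in Tibetan, 19.7 ± 2.27 FPKM in Wujin and 20.8 ± 1.21 FPKM in Large White muscle (SD, n = 3 each).

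**Figure D1:**
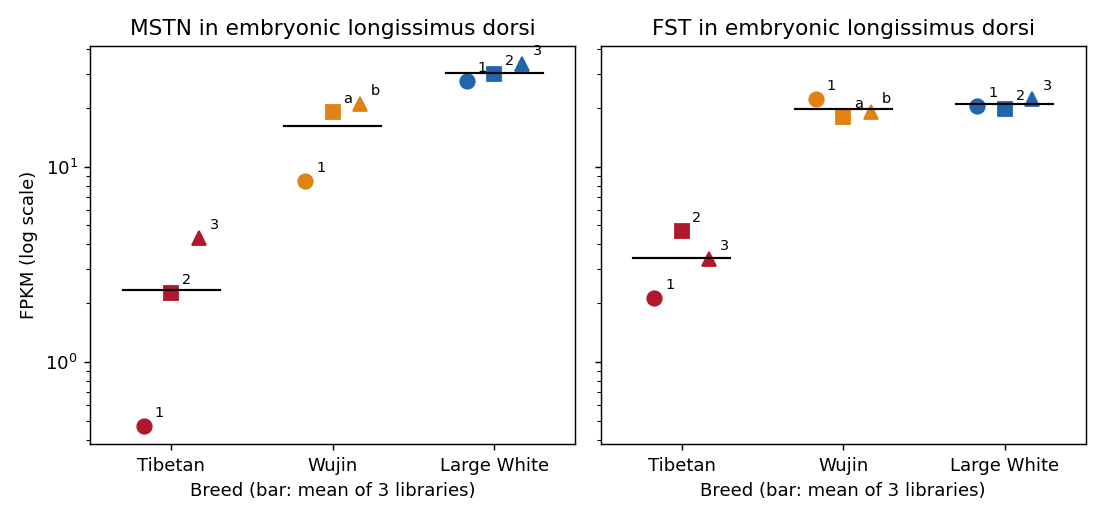
FPKM of MSTN (left) and FST (right) on a log scale in each of 9 libraries, by breed, with points labelled by library and bars at the breed mean. MSTN steps up from Tibetan through Wujin to Large White with no overlap, whereas FST separates the 3 Tibetan libraries from the other 6.

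The place of each gene within its own library does not depend on scaling between libraries. MSTN was above 9.75%, 40.9% and 55.6% of tested entries in Tibetan 1, 2 and 3, above 65.0%, 80.5% and 82.2% in Wujin 1, a and b, and above 85.3%, 86.7% and 88.0% in Large White 1, 2 and 3. By this rank too the breeds did not overlap, but the share of all tested entries with such an order by rank was not computed. FST was above 35.7%, 60.5% and 49.0% of tested entries in Tibetan 1, 2 and 3, and above 79.1% to 84.5% in the Wujin and 80.1% to 81.7% in the Large White libraries.

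Tibetan was compared with Large White on the scale log2(FPKM + 1), which understates changes of low genes. A change was called at an adjusted p under 0.05 in limma's test over all tested entries. Mean MSTN in Tibetan muscle was 7.76% of the Large White mean, and mean FST was 16.3% of it. Both genes fell: the fitted log2 change was -3.40 ± 0.45 for MSTN (SE, limma, adjusted p = 0.000110) and -2.35 ± 0.20 for FST (SE, limma, adjusted p = 6.58e-06). Of all entries tested, 76.2% were called in this comparison, 63.2% as lower and 13.0% as higher. A call alone therefore sets neither gene apart. The median change over all entries was -0.77, and relative to it MSTN changed by -2.63 and FST by -1.58. Of all entries, 2.18% had a lower change than MSTN and 7.39% a lower one than FST. These shares include entries too low in Large White muscle to fall that far on this scale. The median tested entry, at 6.72 to 7.20 FPKM in Large White libraries, could not fall as far as MSTN even at 0 in Tibetan. After median-ratio scaling, which brings the median change near 0, the fitted changes were -2.63 for MSTN and -1.51 for FST, both still called.

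Tibetan with Wujin gave a like picture for both genes, although it uses the same Tibetan libraries. Mean MSTN in Tibetan muscle was 14.5% of the Wujin mean, and mean FST was 17.2% of it. The fitted log2 change was -2.45 ± 0.45 for MSTN (SE, limma, adjusted p = 0.00107) and -2.27 ± 0.20 for FST (SE, limma, adjusted p = 1.06e-05), where 67.7% of all entries were called, 53.9% of all as lower. Relative to the median change of -0.55, MSTN changed by -1.90 and FST by -1.72. The MSTN change was -1.50 with a pseudocount of 5 and the FST change -1.57, with both still called.

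Between Wujin and Large White neither gene was called. The Tibetan libraries do not enter the difference, but they enter its SE, which comes from the spread within all 3 breeds. Mean MSTN in Wujin muscle was 53.5% of the Large White mean, and mean FST was 94.7% of it. The fitted log2 change of MSTN was -0.95 ± 0.45 (SE, limma, adjusted p = 0.178), with a 95% interval of -1.98 to 0.071. That of FST was -0.08 ± 0.20 (SE, limma, adjusted p = 0.804), with a 95% interval of -0.53 to 0.38. In this comparison 6.52% of all entries were called, 4.85% of all as lower and 1.67% as higher, and 35.3% had all Wujin libraries below all Large White libraries, as MSTN did. Relative to the median change of -0.20, MSTN changed by -0.76 and FST by 0.12. Without Wujin 1 the fitted MSTN change was -0.57 (limma, adjusted p = 0.469), and with only the 6 libraries of these breeds in the fit the SE was 0.32 (adjusted p = 0.114). The F test of limma over the 3 breeds was passed by MSTN (adjusted p = 0.000283) and FST (adjusted p = 9.04e-06), as by 77.6% of entries.

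The ratio of FST to MSTN spread more widely in the Tibetan and Wujin libraries than in those of Large White. It was 4.53 in Tibetan 1, 2.07 in Tibetan 2 and 0.784 in Tibetan 3. The ratio was 2.64 in Wujin 1, 0.937 in Wujin a and 0.910 in Wujin b. In Large White 1, 2 and 3 it was 0.748, 0.669 and 0.662, so MSTN exceeded FST in each. Every Tibetan and Wujin library had a higher ratio than every Large White library, though Tibetan 3 lay just above Large White 1, and the Tibetan and Wujin ranges overlapped.

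On the scale log2((FST + 1)/(MSTN + 1)) the ratio averaged 0.54 ± 0.72 in Tibetan, 0.36 ± 0.81 in Wujin and -0.51 ± 0.10 in Large White libraries (SD, n = 3 each). An exact permutation test of the F statistic over all assignments of libraries to the 3 breeds gave p = 0.132, where the smallest p possible is 0.0036. Tibetan lay above Large White by 1.05 and Wujin above Large White by 0.87 (2-sided exact permutation tests, p = 0.1 in both, the smallest that 3 against 3 allows). Tibetan and Wujin differed by 0.18 (2-sided exact permutation test, p = 1.0), and the sign of that difference turned without Tibetan 1 (-0.098), Wujin a (-0.048) or Wujin b (-0.068) and with a pseudocount of 5 (-0.064). Without Wujin 1 the Wujin minus Large White difference was 0.40, and with a pseudocount of 5 the Tibetan minus Large White difference was 0.66. None of the 3 differences between breeds passed 0.05, and adjustment over 3 can only raise a p. That FST and MSTN changed by different amounts between breeds was thus not shown by test.

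**Figure D2:**
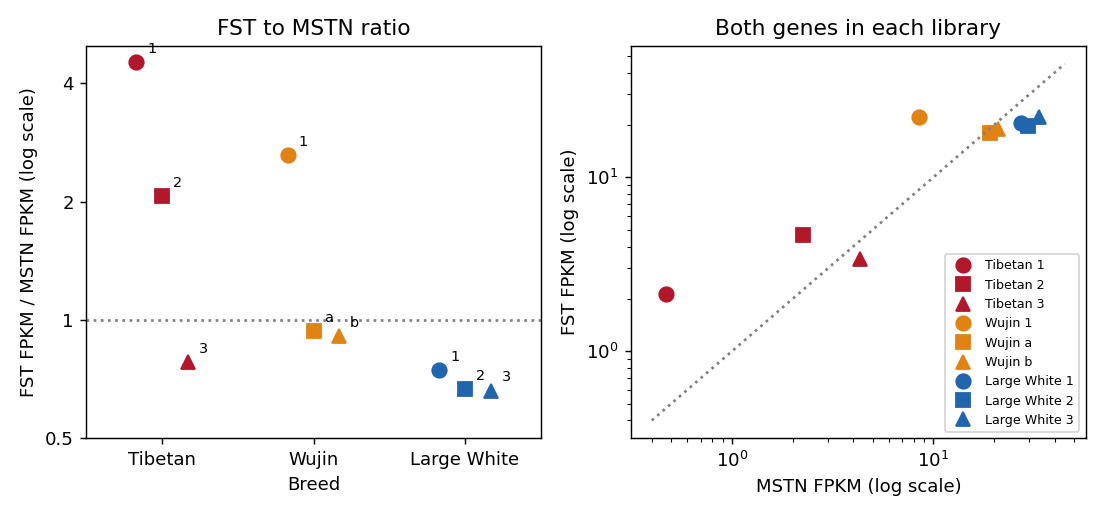
FST FPKM divided by MSTN FPKM in each library by breed on a log scale (left), and FST against MSTN FPKM on log scales with a dotted line where they are equal (right). Ratios lie between 0.784 and 4.53 in Tibetan, 0.910 and 2.64 in Wujin and 0.662 and 0.748 in Large White libraries, so Large White points sit together below the line.

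Other genes of the route from ligand to target were taken from 6 lists with 52 places, of which 40 were matched to a symbol and 35 passed the filter of 1 FPKM, MSTN and FST included. Places without a match, such as INHBA, INHBB, FSTL3, MYOG and PAX7, are not analysed here. Of the 33 places left after MSTN and FST, 23 fell and 3 rose in Tibetan against Large White muscle, with 7 not called. Their median relative log2 change was -0.12, near that of all genes, which is 0 by construction. In Tibetan against Wujin muscle 20 fell, 3 rose and 10 were not called, where 53.9% of all entries were called lower and 13.8% higher. The median relative change of the 33 there was -0.13. In Wujin against Large White muscle 1 rose, none fell (limma) and 32 were not called, with a median relative change of 0.062, where 1.67% of all entries were called higher and 4.85% lower. At an unadjusted p under 0.05, limma gave 3 higher and 9 lower of all 35 there, with neither MSTN nor FST among them, where 6.0% of all entries were higher and 26.4% lower at that threshold. The counts by role that follow stand against the 63.2% of all entries called lower and 13.0% called higher in Tibetan against Large White muscle, and nothing is read from a share near these. Scaling mattered for this group: over all 35, 25 were called lower and 3 higher in Tibetan against Large White muscle as deposited, 14 lower and 8 higher after median-ratio scaling, and 16 lower and 9 higher after quantile normalization. Over all 13106 entries the same settings gave 8280 lower and 1703 higher, 4326 lower and 4245 higher, and 4350 lower and 4032 higher.

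Among ligands, GDF11, the closest relative of myostatin, was the other one tested. GDF11 stood at 0.537, 0.636 and 0.591 FPKM in Tibetan 1, 2 and 3, at 2.97, 3.46 and 3.24 FPKM in Wujin 1, a and b, and at 2.42, 2.51 and 2.81 FPKM in Large White 1, 2 and 3. Unlike MSTN, GDF11 was highest in Wujin, whose libraries lay above those of Large White without overlap, as did 9.67% of all entries. It fell in Tibetan against Large White muscle with a fitted log2 change of -1.17 ± 0.12 (SE, limma, adjusted p = 1.53e-05), or -0.40 relative to all genes, and its Wujin minus Large White change of 0.24 ± 0.12 was not called as deposited (SE, limma, adjusted p = 0.183), while after quantile normalization it was called at 0.48 (adjusted p = 0.0408). The ratio of MSTN to GDF11 was 0.873 in Tibetan 1, the one library where GDF11 was the higher, 3.55 in Tibetan 2 and 7.29 in Tibetan 3. It was 2.84 to 6.44 in Wujin libraries and 11.3 to 11.9 in Large White libraries. INHBE, an activin beta subunit, stayed below the filter, with 0.249 ± 0.233 FPKM in Tibetan and 0.0224 ± 0.0389 FPKM in Large White libraries (SD, n = 3 each).

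Among proteases that cut TGF-beta family precursors or propeptides, 3 of 4 tested fell in Tibetan against Large White muscle as deposited and 2 after either scaling. BMP1, a member of the family of proteases that release myostatin from its propeptide, averaged 7.94 ± 3.87 FPKM in Tibetan and 25.2 ± 1.13 FPKM in Large White muscle (SD, n = 3 each), a relative change of -0.86. PCSK5, a proprotein convertase, averaged 0.365 ± 0.033 FPKM in Tibetan, 3.51 ± 1.77 FPKM in Wujin and 7.56 ± 1.08 FPKM in Large White muscle (SD, n = 3 each), the order that MSTN showed. FURIN, the convertase that cuts many such precursors, fell as deposited, by a fitted change of -0.58 (limma, adjusted p = 0.0344), but its sign turned to 0.30 after median-ratio scaling and 0.14 after quantile normalization.

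Among extracellular binders, 7 of 8 tested fell in Tibetan against Large White muscle, FST included, and after median-ratio scaling 4 were lower and 1 higher. The proteoglycan fibromodulin (FMOD) averaged 4.21 ± 0.303 FPKM in Tibetan and 151 ± 30.9 FPKM in Large White muscle (SD, n = 3 each), a relative change of -4.07. LTBP3, which holds latent TGF-beta in the matrix, averaged 3.73 ± 0.43 FPKM in Tibetan and 30.5 ± 1.79 FPKM in Large White muscle (SD, n = 3 each), a relative change of -1.97. Decorin (DCN), a matrix proteoglycan that can bind myostatin, changed by -1.69 relative to all genes. These matrix genes fell in Tibetan muscle under both other scalings as well. WFIKKN2, which binds myostatin and GDF11, averaged 9.85 ± 2.46 FPKM in Tibetan, 12.5 ± 1.02 FPKM in Wujin and 8.81 ± 0.957 FPKM in Large White muscle (SD, n = 3 each). Its Tibetan minus Large White change of 0.12 was not called as deposited (limma, adjusted p = 0.546), while after median-ratio scaling it was 1.0 (limma, adjusted p = 0.000847). In Wujin against Large White muscle WFIKKN2 was not called as deposited (0.46, limma, adjusted p = 0.115) and was called after quantile normalization (0.67, adjusted p = 0.0397). In Tibetan muscle WFIKKN2 therefore stood above FST in FPKM, and in Wujin and Large White muscle FST stood above WFIKKN2. INHA, the inhibin alpha subunit, was the 1 listed gene called in Wujin against Large White muscle as deposited, with a fitted change of 0.78 (limma, adjusted p = 0.0487) that was not called after median-ratio scaling (adjusted p = 0.0768) or quantile normalization (adjusted p = 0.0651).

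Of 5 receptors and co-receptors, 4 fell in Tibetan against Large White muscle as deposited, and after median-ratio scaling 2 were lower and 1 higher. As deposited, each of the 4 had a smaller fitted change than MSTN or FST, but log2(FPKM + 1) limits how far such low genes can fall. ACVR2B, the type II receptor that myostatin is known to bind most readily, stood at 2.26, 1.72 and 3.43 FPKM in Tibetan 1, 2 and 3, at 1.78, 2.67 and 3.65 FPKM in Wujin 1, a and b, and at 3.61, 4.06 and 3.68 FPKM in Large White 1, 2 and 3. It was not called between Tibetan and Large White (fitted change -0.49, limma, adjusted p = 0.0699), and that change was 0.24 after median-ratio scaling and 0.38 after quantile normalization. ACVR2A, the other type II receptor, averaged 2.21 ± 0.772 FPKM in Tibetan and 5.77 ± 0.552 FPKM in Large White muscle (SD, n = 3 each), a fitted change of -1.10 (limma, adjusted p = 0.000370) that was -0.35 and not called after median-ratio scaling (adjusted p = 0.0685). The type I receptor TGFBR1 averaged 1.72 ± 0.0369 FPKM in Tibetan and 6.81 ± 1.04 FPKM in Large White muscle (SD, n = 3 each), a relative change of -0.74. ACVR1B, a type I receptor of activins and myostatin, was called lower as deposited (-0.36) and higher after median-ratio scaling (0.40) or quantile normalization (0.51). BAMBI, a decoy receptor that lacks a kinase, changed by -0.43 relative to all genes. Its level averaged 0.420 ± 0.228 FPKM in Tibetan and 2.26 ± 0.278 FPKM in Large White muscle (SD, n = 3 each).

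Of 6 SMADs and SMAD regulators, 4 fell in Tibetan against Large White muscle as deposited, and after median-ratio scaling 2 were lower and 1 higher. SMAD2, which carries the signal of activin and myostatin receptors to the nucleus, averaged 0.772 ± 0.372 FPKM in Tibetan, 3.43 ± 1.13 FPKM in Wujin and 5.27 ± 0.723 FPKM in Large White muscle (SD, n = 3 each), a relative Tibetan minus Large White change of -1.07. SMAD3, which carries the same signal, was not called as deposited (-0.26, limma, adjusted p = 0.123) and was higher after median-ratio scaling (0.63, adjusted p = 0.00245). SMURF1, a ubiquitin ligase that acts on the pathway, had a relative change of -0.21, and SKIL, a SMAD corepressor, one of -0.20. After quantile normalization neither was called (limma, adjusted p = 0.364 for SMURF1 and 0.574 for SKIL), and SKIL was not called after median-ratio scaling (adjusted p = 0.114).

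Of 10 downstream regulators of muscle, 5 fell and 3 rose in Tibetan against Large White muscle as deposited, and 2 were lower and 5 higher after median-ratio scaling. The determination factor MYF5 averaged 4.68 ± 1.49 FPKM in Tibetan, 50.7 ± 6.02 FPKM in Wujin and 46.9 ± 3.51 FPKM in Large White muscle (SD, n = 3 each), low in Tibetan and near-level across the other breeds, as FST was. MEF2C, a factor of muscle differentiation, had a relative Tibetan minus Large White change of -0.96. The 3 listed genes that rose were FOXO1 and the muscle ubiquitin ligases FBXO32 and TRIM63. TRIM63, which marks muscle proteins for breakdown, averaged 90.4 ± 8.45 FPKM in Tibetan, 10.3 ± 1.2 FPKM in Wujin and 7.42 ± 2.0 FPKM in Large White muscle (SD, n = 3 each), a relative change of 4.24. All 3 also rose after median-ratio scaling and after quantile normalization.

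**Figure D3:**
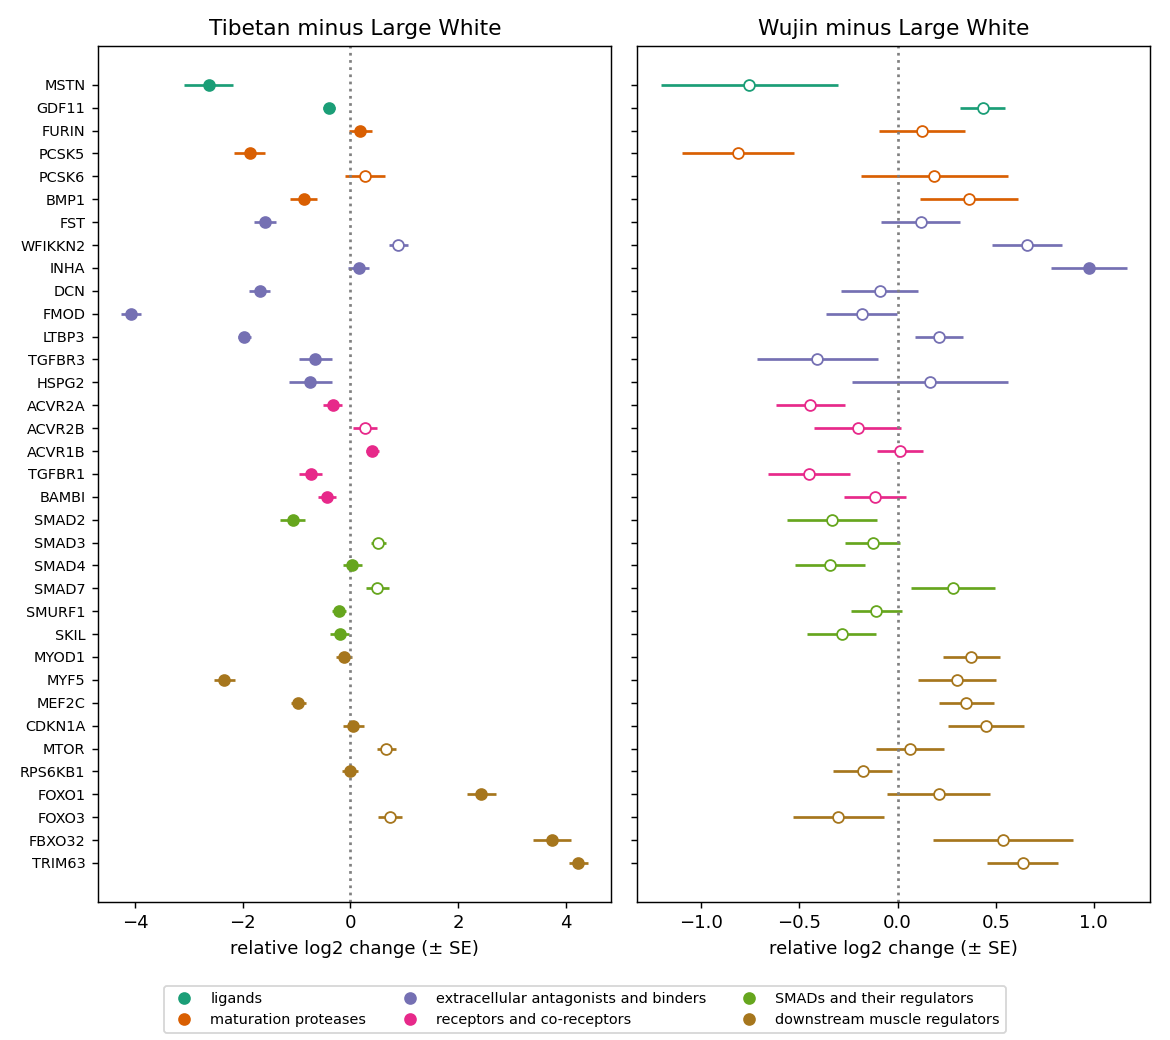
Relative log2 change, the fitted change minus the median change of all 13106 entries, with its SE for 35 genes of the pathway in Tibetan minus Large White (left) and Wujin minus Large White (right); the axes differ in range and colours give the role. Filled points passed limma's test of the fitted change at an adjusted p under 0.05: 28 on the left, from FMOD at -4.07 to TRIM63 at 4.24, and INHA alone on the right.

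The genes whose pattern over the 9 libraries lay nearest to MSTN or FST were sought among 8062 profiles of tested genes with a symbol. Likeness was the root mean square difference between profiles of log2(FPKM + 1), each taken relative to the gene's own mean. FST had closer companions than MSTN. The 5 nearest to FST differed by 0.129 to 0.187 and were BPHL, a hydrolase, IFT43, a protein of transport in cilia, CRYL1, a dehydrogenase also called lambda-crystallin, the growth factor FGF18, and SLC22A17, a receptor for lipocalin-2. BPHL, the nearest, stood at 2.57, 5.53 and 4.22 FPKM in Tibetan 1, 2 and 3, at 30.4, 24.7 and 25.3 FPKM in Wujin 1, a and b, and at 30.7, 25.2 and 25.0 FPKM in Large White 1, 2 and 3. It had the same order of the Tibetan libraries and the same high Wujin 1 as FST, a likeness for which it was chosen.

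The 5 nearest to MSTN differed by 0.359 to 0.416. They were the basement membrane protein NID2, the kinase PRKD1, the Slit receptor ROBO1, the organic anion transporter SLCO2B1 and the semaphorin SEMA6D. NID2 stood at 2.99, 2.93 and 4.51 FPKM in Tibetan 1, 2 and 3, at 14.2, 31.0 and 32.1 FPKM in Wujin 1, a and b, and at 39.5, 49.4 and 47.3 FPKM in Large White 1, 2 and 3. In each of these 5 genes Wujin 1 lay below the other Wujin libraries, as for MSTN. They were chosen for a like pattern, and Wujin 1 was the lowest of its breed for 62.4% of all tested entries. MSTN and FST differed from each other by 0.689, which placed FST at rank 424 among the neighbours of MSTN and MSTN at rank 2510 among those of FST. The libraries of a breed share that breed's overall profile, so likeness over them is a description.

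**Figure D4:**
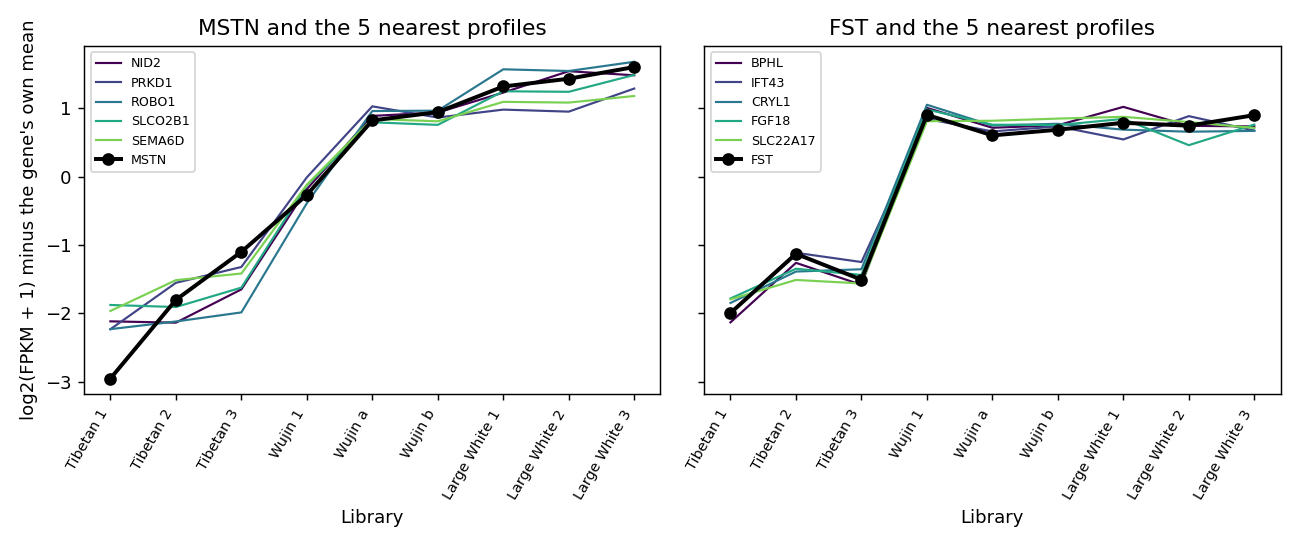
Profiles of MSTN (left, black) and FST (right, black) with those of the 5 genes nearest to each, as log2(FPKM + 1) minus the gene's own mean over the 9 libraries. The MSTN group climbs by breed mean from Tibetan to Large White with Wujin 1 below the other Wujin libraries, though PRKD1 in Wujin a lies above Large White 1 and 2. The FST group takes 2 levels, low in the 3 Tibetan libraries and high in the other 6.

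Markers of other cells moved with the breeds too. In bulk tissue, fewer cells of a type and less RNA per cell cannot be told apart. The counts below stand against the 63.2% of all entries called lower in Tibetan against Large White muscle. In that comparison all 5 tested markers of progenitors and myoblasts fell as deposited, and 4 were lower after median-ratio scaling. Their sum was 46.4 to 63.4 FPKM in Tibetan and 302 to 323 FPKM in Large White libraries. Sums here take all matched markers, tested or not. All 6 tested fibroblast markers fell, at 319 to 356 FPKM in Tibetan and 5299 to 5935 FPKM in Large White libraries, as did all 5 tested markers of cycling cells, at 1.10 to 1.86 FPKM in Tibetan and 104.9 to 109.6 FPKM in Large White libraries. Both tested erythroid markers fell, at 146 to 575 FPKM in Tibetan and 1919 to 3731 FPKM in Large White libraries, and 3 of 5 endothelial markers fell as deposited, a share near that of all entries, at 55.6 to 67.9 FPKM in Tibetan and 105 to 111 FPKM in Large White libraries. After median-ratio scaling 1 endothelial marker was lower and 2 were higher. Of 3 tested leukocyte markers 1 fell as deposited, and after median-ratio scaling or quantile normalization 1 was higher and none lower. The matched ones summed to 7.42 to 15.4 FPKM in Tibetan and 11.4 to 15.8 FPKM in Large White libraries. Of the adipocyte markers only PLIN1, a coat protein of fat droplets, and CIDEC were matched. Neither passed the filter, so neither was tested. They summed to 1.60 to 5.50 FPKM in Tibetan, 0.228 to 1.49 FPKM in Wujin and 0.0516 to 0.155 FPKM in Large White libraries. PLIN1 was listed at 0 in all 3 Large White libraries. In Wujin against Large White muscle, 4 of 5 markers of cycling cells fell as deposited, where 4.85% of all entries were called lower. The 5 summed to 57.1 to 77.6 FPKM in Wujin and 104.9 to 109.6 FPKM in Large White libraries. After median-ratio scaling 1 of 5 was lower, against 166 of all 13106 entries, and after quantile normalization 3 of 5, against 368 of 13106. As deposited, the endothelial marker EGFL7 was called higher in Wujin than in Large White muscle (0.66, limma, adjusted p = 0.0394). The other tested endothelial markers had negative fitted changes and were not called: KDR (-0.55), PECAM1 (-0.24), TEK (-0.13) and TIE1 (-0.018). None of the 5 was called after median-ratio scaling, and 1 was called higher after quantile normalization. Wujin fibroblast markers summed to 3059 to 5569 FPKM, and none of these markers was called (limma), with 1 of 6 lower at an unadjusted p under 0.05. The part of these cell types in the levels of MSTN and FST was not tested.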

How the data were processed

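The authors deposited 1 table of FPKM, fragments scaled to transcript length and to the mapped fragments of a library, for 9 libraries, per the file headers. Per the labels' protocols, a TruSeq kit turned 3 ug of Trizol-extracted total RNA into each library. The submitters' processing notes list TopHat, with no role. Its version, the quantifier, the annotation and the genome build were not given in the sources used here, so no positions are printed. Symbols were matched by identifier for 11179 of 19643 entries (56.9%). The 2 Wujin columns with one header were taken as replicates without a number.

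Entries averaging 1 FPKM or more were tested on log2(FPKM + 1) with limma 3.58.1 in R 4.3.3 (breed means over all 9 libraries, eBayes with trend, Benjamini-Hochberg over 13106 entries). The code was run on simulated data with few changed entries, as many up as down. That run does not cover comparisons where most entries were called, such as those with Tibetan muscle. The relative change subtracts the median change of all entries. The ratio was tested with exact permutations in scipy 1.17.1. FPKM give no counting interval, and a gain in a few abundant genes lowers all others.

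MSTN and FST, the gene lists and the tests were chosen with earlier results of these data known. Named in the text are both genes, GDF11, ACVR2A, ACVR2B, up to 3 genes of smallest F test p in each list and the 5 nearest profiles of each. FOXO1, FBXO32, WFIKKN2, INHA, INHBE, ACVR1B, SMAD3, the markers and the neighbouring genes were named after their values were seen. Alternatives were pseudocounts, filters, scalings, smaller fits, the replicate block and leaving out each library.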

Additional observations from a re-analysis of the deposited data

How the results depend on the processing

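The calls of MSTN and FST in both comparisons with Tibetan muscle, and in the F test, held under every alternative run, with fitted changes of -4.06 to -2.29 for MSTN and -2.65 to -1.51 for FST in Tibetan against Large White muscle. In Wujin against Large White muscle neither gene was called under any alternative (limma, adjusted p = 0.0704 to 0.469 for MSTN and 0.631 to 0.970 for FST), and the sign of FST turned after median-ratio scaling (0.15) and quantile normalization (0.058). Leaving out 1 library gave -1.17 to -0.57 for MSTN there. The Tibetan minus Wujin difference in the FST to MSTN log2 ratio was -0.064 with a pseudocount of 5 and -0.098 to 0.65 with 1 library left out. The number of genes called in Wujin against Large White, 855, was 270 with a pseudocount of 0.1, 1831 with a pseudocount of 5, 402 with a mean of at least 5 FPKM, 410 after median-ratio scaling, 280 with only the 6 libraries, and 66 to 1633 with 1 library left out; the cause was not tested. With a mean of at least 5 FPKM, where fewer genes are tested, 5533 of them were called in Tibetan against Large White, against 9983, and 5181 in Tibetan against Wujin, against 8871.

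Deviations from the breed mean did not go together in same-numbered Tibetan and Large White libraries (correlations of 0.013, -0.023 and -0.076). Such deviations cancel within a breed, so these correlations cannot decide whether the numbers pair the samples. With the number as a replicate block, the MSTN change of -3.40 (limma, adjusted p = 0.000523) and the FST change of -2.35 (adjusted p = 0.000422) stayed called. No paired analysis was possible for Wujin because 2 of its columns carry no number. FPKM give no count of fragments, so the low MSTN value of Tibetan 1 has no counting error attached.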

Other observations

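The nearest tested genes with a symbol on each side of MSTN and FST on the chromosome did not share 1 pattern. They were taken from the RefSeq order of assembly Sscrofa11.1 and chosen after the results were known. Genes without a symbol match or below the filter were passed over, such as 1 between MSTN and HIBCH. Beside MSTN, HIBCH, an enzyme of valine breakdown, averaged 5.53 ± 0.884 FPKM in Tibetan and 6.69 ± 1.29 FPKM in Large White muscle and was not called (limma, adjusted p = 0.271). ORMDL1, a regulator of sphingolipid synthesis on the other side, averaged 2.18 ± 0.397 FPKM in Tibetan and 10.05 ± 0.314 FPKM in Large White muscle, a relative log2 change of -1.03, and PMS1, a mismatch repair gene, had one of -0.11. Beside FST, MOCS2, of molybdenum cofactor synthesis, had a relative change of 0.025 and the integrin ITGA2 one of -1.53. NDUFS4, a subunit of respiratory complex I on the other side of FST, averaged 79.3 ± 18.4 FPKM in Tibetan and 57.8 ± 4.03 FPKM in Large White muscle (SD, n = 3 each), a relative change of 1.2. The next genes outward, INPP1 beside MSTN and ARL15 beside FST, had relative changes of -0.048 and -0.38.

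Wujin 1 was the lowest Wujin library for 28 of the 35 tested pathway genes, or 80.0%, against 62.4% of all tested entries. FST was among the exceptions.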
